A study of Mus musculus with 2 samples.

Results

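The 30 genes described here mark the replication and the division of cells. Of these, 15 are S-phase genes (Pcna, Mcm2, Mcm3, Mcm4, Mcm5, Mcm6, Mcm7, Rrm1, Rrm2, Tyms, Gmnn, Ung, Slbp, Cdc6 and Ccne2). The other 15 are G2/M genes (Mki67, Top2a, Cdk1, Ccnb1, Ccnb2, Birc5, Cenpf, Tpx2, Ube2c, Aurka, Aurkb, Bub1, Nusap1, Cdca8 and Hmmr). They were taken by symbol from the 32285 genes in the deposited matrices, and all 30 were found. Their transcripts were counted as unique molecular identifiers (UMIs) in single cells of the 4th mammary gland of virgin female C57BL/6 mice, 6 to 8 weeks old. The mice carried a deletion of Gpm6a, a membrane glycoprotein gene (KO), or were wild type (WT), and no label says which part of the gene was deleted or that the deletion was limited to a tissue. Sorting kept DAPI-negative, living cells from 3 littermates of each genotype, and 1 library of each was deposited. The number of replicates is therefore 1, and whether the cells of the 3 animals were pooled is not stated.

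A cell that divides copies its genome in S phase, for which it loads and fires MCM helicases and makes nucleotides, and then passes G2 and mitosis, where cyclin B with Cdk1, the spindle and the chromosomal passenger complex act. Transcription of the S-phase genes is driven mainly by E2F factors, and that of many G2/M genes by the DREAM and MuvB complexes through the CHR element and by NF-Y through CCAAT boxes. In the virgin gland, division is known from the growing ducts and end buds, where basal, luminal and stromal cells proliferate under ovarian hormones and growth factors.

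The KO library held 11442 barcodes and 139757797 UMIs and the WT library 12291 barcodes and 160026788 UMIs. Filters and a doublet caller left 10472 cells in the KO library, with a median of 9521 UMIs, and 10523 in the WT library, with a median of 11086. Of these barcodes, 20 occurred in both libraries. Gpm6a itself had 29 UMIs in the KO cells and 284 in the WT cells, 0.225 and 1.91 counts per 1000000 UMIs (CPM), and 3′ counts check the deletion only if they fall in the deleted part. The protocol in the labels calls the sorted cells epithelial, but fibroblast, vascular, immune and muscle cells were present. Clusters were made without cell-cycle genes and named from marker genes, and each class name stands for cells that resemble the type. A cell is said to carry S-phase or G2/M UMIs when it had UMIs of at least 2 genes of that list after being thinned to 2000 UMIs, which leaves out 370 KO and 788 WT cells that were shallower. The thinning is a random draw of UMIs, and shares are given for 1 draw, with the mean over 100 further draws where it matters. Intervals in brackets are 95% and cover counting error only, not the draw: exact Clopper-Pearson for shares, exact Poisson for CPM and exact conditional binomial for log2 ratios. UMIs of 1 cell are not independent, so intervals of summed levels are too narrow, and no difference between the libraries below has a replicate check or a test.

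The promoters of the 2 lists differed in their letters. Windows of 300 bases, from 250 before to 50 after the gene start, were available from RefSeq (GRCm38.p6) for 25 of the 30 genes. On both strands, 3 motifs were searched: the E2F site as TTTCCCGC or TTTGGCGC, the CHR element as TTTGAA or TTCGAA, and CCAAT. Other forms of the E2F site were not searched, so the counts hold for these letters only. The E2F letters were in the windows of 5 of 12 S-phase genes (Mcm3, Mcm5, Mcm6, Mcm7 and Cdc6) and 0 of 13 G2/M genes, against 1.56% of all 32851 windows. The CHR letters were in 2 of 12 S-phase genes and 10 of 13 G2/M genes, against 19.2% of all windows, and in each of these 10 the window also held CCAAT, a pair found in 7.52% of all windows. CCAAT alone was in 9 of 12 S-phase and 11 of 13 G2/M genes, against 37.4%. The motifs do not share letters at any of the matches printed here except where 2 CCAAT matches on opposite strands overlap, and a match is not evidence of binding. The windows of Birc5 and Nusap1 held none of the 3 motifs, and that of Ccnb1 held CCAAT only.

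The 5 windows below are shown because they hold the contrast between the lists in the letters searched. Mcm6 and Mcm5, which encode subunits of the replicative helicase, hold E2F letters. CHR and CCAAT letters stand together in Cdk1, the mitotic kinase, Ube2c, the ubiquitin-conjugating enzyme of the anaphase-promoting complex, and Hmmr, a spindle protein. The Cdk1 window also holds TTTCGCGC, which is close to TTTCCCGC but was not among the letters searched. Each is read 5′ to 3′ along the strand of its gene, and capitals mark the matches on either strand. Mcm6 lies at chr1:128359656-128359955 on the minus strand, Mcm5 at chr8:75109259-75109558 on the plus strand, Cdk1 at chr10:69352863-69353162 on the minus strand, Ube2c at chr2:164769679-164769978 on the plus strand and Hmmr at chr11:40733388-40733687 on the minus strand.
Mcm6: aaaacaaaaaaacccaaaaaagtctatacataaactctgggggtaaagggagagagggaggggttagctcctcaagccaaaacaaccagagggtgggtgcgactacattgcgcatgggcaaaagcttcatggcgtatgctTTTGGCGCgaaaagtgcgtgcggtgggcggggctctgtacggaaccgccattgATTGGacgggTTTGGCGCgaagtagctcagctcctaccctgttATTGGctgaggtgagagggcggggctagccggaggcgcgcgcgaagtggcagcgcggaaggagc
Mcm5: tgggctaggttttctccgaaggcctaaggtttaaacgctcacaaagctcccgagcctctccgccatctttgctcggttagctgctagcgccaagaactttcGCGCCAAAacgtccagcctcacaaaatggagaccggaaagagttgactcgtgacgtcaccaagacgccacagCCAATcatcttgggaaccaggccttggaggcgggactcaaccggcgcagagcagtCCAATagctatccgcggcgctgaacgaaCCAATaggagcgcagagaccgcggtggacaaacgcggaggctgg
Cdk1: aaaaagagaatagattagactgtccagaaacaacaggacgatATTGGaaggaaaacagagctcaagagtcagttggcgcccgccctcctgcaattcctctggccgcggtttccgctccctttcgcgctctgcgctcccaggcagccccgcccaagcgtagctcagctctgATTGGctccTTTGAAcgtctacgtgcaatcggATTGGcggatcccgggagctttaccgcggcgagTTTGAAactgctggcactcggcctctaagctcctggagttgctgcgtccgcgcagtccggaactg
Ube2c: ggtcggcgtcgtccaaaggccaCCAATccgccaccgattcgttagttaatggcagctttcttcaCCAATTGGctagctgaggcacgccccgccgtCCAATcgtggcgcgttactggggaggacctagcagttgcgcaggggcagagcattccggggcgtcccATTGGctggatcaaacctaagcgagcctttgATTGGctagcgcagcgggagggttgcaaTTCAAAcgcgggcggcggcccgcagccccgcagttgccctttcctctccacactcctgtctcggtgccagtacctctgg
Hmmr: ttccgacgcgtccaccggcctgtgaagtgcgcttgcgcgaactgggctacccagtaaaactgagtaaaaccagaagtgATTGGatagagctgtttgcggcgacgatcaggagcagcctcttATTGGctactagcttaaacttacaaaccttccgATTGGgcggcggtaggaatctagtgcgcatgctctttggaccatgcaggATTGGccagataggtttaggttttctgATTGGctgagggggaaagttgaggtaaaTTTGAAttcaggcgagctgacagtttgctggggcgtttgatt

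**Figure D1:**
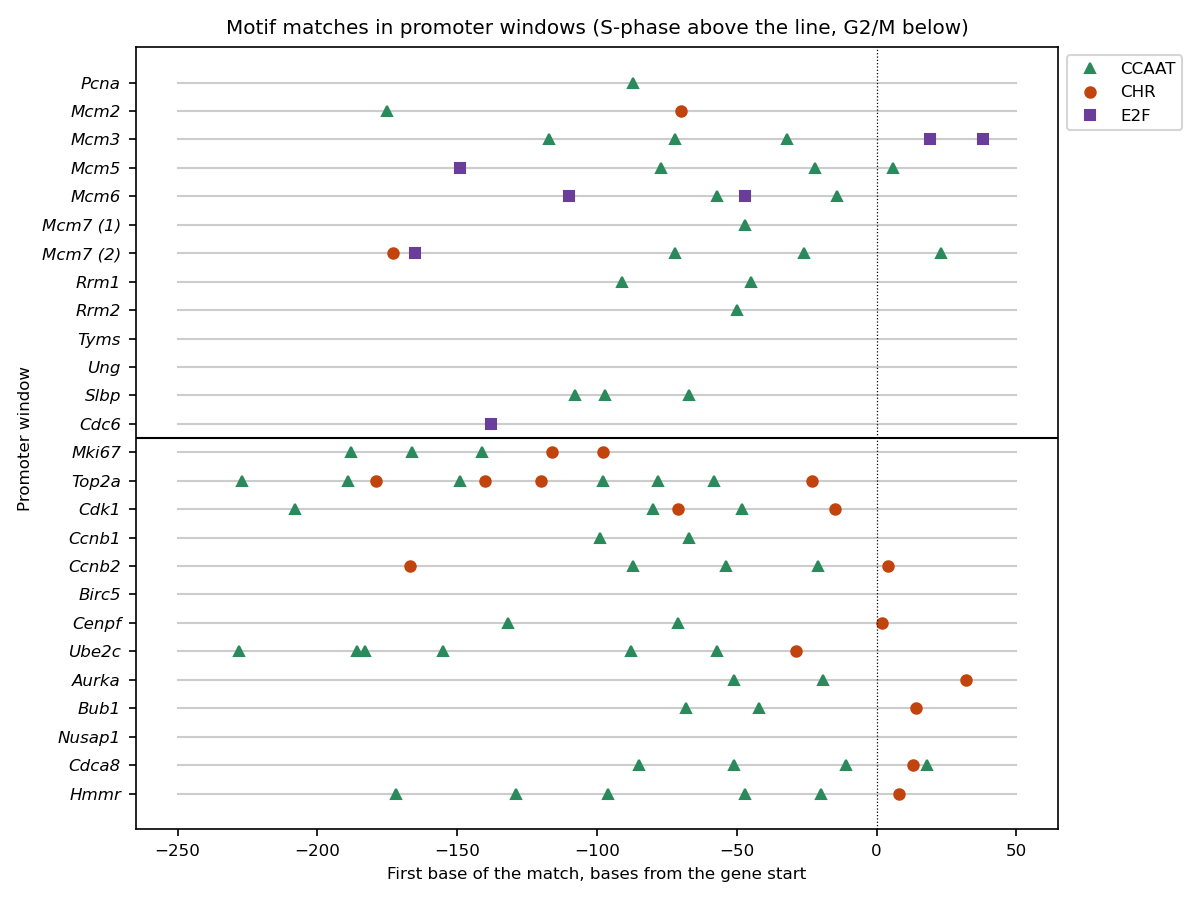
Positions of motif matches in the promoter windows of 25 of the 30 genes; the x axis is the first base of the match in bases from the gene start (0), each row is a window (Mcm7 has 2), and squares, circles and triangles are E2F, CHR and CCAAT letters. CHR matches lie in 10 of 13 G2/M rows and E2F matches, in the 2 forms searched, in 0 of them.

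Cells with S-phase UMIs were several times as common as cells with G2/M UMIs in both libraries. G2/M cells made up 3.06% (2.73 to 3.41%) of the KO and 3.83% (3.46 to 4.23%) of the WT cells thinned to 2000 UMIs, and cells with S-phase UMIs 10.6% (9.99 to 11.2%) and 11.2% (10.6 to 11.9%). As counted, without thinning, the shares were 8.42% against 9.66% for G2/M and 54.4% against 61.4% for S-phase genes, at the unequal depths given above. Among the thinned cells, 86 KO and 97 WT cells had just 2 G2/M genes and 496 and 533 had just 1, so many cells lie near the limit. Skeletal muscle cells, which do not divide, gave the background, with 0 of 5 KO and 0 of 56 WT cells carrying UMIs of either list. Over the 100 further draws the WT muscle share stayed at 0 for G2/M and averaged 0.536% for S-phase genes. For WT a count of 0 allows a share of up to 3 counts of the total, or 5.36%, and the class medians were 4140.5 KO and 6440.5 WT UMIs. That limit is above the G2/M share over all cells, and the 5 KO muscle cells are too few to set one. Neutrophils, held not to divide once mature, were also planned as a background. They did not give a low share: 5 of 26 KO and 7 of 56 WT cells carried G2/M UMIs. The class was led by Ngp, S100a9 and Camp, and whether its cells were mature was not tested. Only muscle then served as a background, a choice made after seeing these shares.

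Among the groups with epithelial markers, the share of G2/M cells was highest in a cluster outside the named classes. The unnamed cluster 12, led by Serpinb11, Lbhd2 and Shisa8 and with 3 of 7 basal markers, held G2/M UMIs in 21.1% (15.7 to 27.2%) of KO and 25.1% (20.5 to 30.1%) of WT cells. The shares were 5.44% (4.26 to 6.82%) against 6.46% (5.01 to 8.17%) in hormone-sensing luminal cells and 3.47% (2.39 to 4.87%) against 6.57% (4.71 to 8.87%) in luminal progenitors. Basal cells, the contractile outer layer, had 1.16% (0.532 to 2.19%) against 0.352% (0.0960 to 0.899%), which is 9 and 4 cells. The mean over the 100 further draws was 0.952% in KO and 0.683% in WT basal cells. G2/M cells were thus a small share of the named basal class and a large share of the cluster with some of its markers, in both libraries. Keratinocytes, cells of the skin epithelium, were named in WT alone and held G2/M UMIs in 25 of 259 cells, 9.65% (6.34 to 13.9%). These are 25 of the 373 WT G2/M cells, with no KO counterpart. Cluster 12 stood for 14.2% of all KO and 22% of all WT G2/M cells while holding 2.03% and 3.27% of the cells. By number, the hormone-sensing class held the most epithelial G2/M cells in KO (70, against 44 in cluster 12), and cluster 12 in WT (82, against 64 in the hormone-sensing class).

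Among immune cells, natural killer cells had G2/M UMIs in 18.1% (11.8 to 25.9%) of 127 KO and 17.9% (10.2 to 28.3%) of 78 WT cells. In the T cell class the shares were 7.66% (5.81 to 9.88%) and 6.81% (4.15 to 10.4%). Its cluster 21, led by Ctla4, Tnfrsf4 and Foxp3, genes known from regulatory T cells, had 27.3% (19.2 to 36.6%) of 110 KO and 31% (17.6 to 47.1%) of 42 WT cells. The share was 4.74% (2.83 to 7.38%) against 9.72% (5.42 to 15.8%) in B cells. Dendritic cells had 6.12% (4.14 to 8.67%) against 7.21% (4.67 to 10.5%), and macrophages 8.74% (5.26 to 13.5%) against 4.46% (2.06 to 8.29%). The intervals of the 2 libraries overlap in each of these groups. Fibroblasts, the largest class, had few such cells, with 2 of 4359 KO and 24 of 3552 WT cells, 0.0459% (0.00556 to 0.166%) and 0.676% (0.433 to 1.00%).

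S-phase UMIs followed the order of G2/M UMIs in part. Natural killer cells (40.9% in KO and 42.3% in WT) and cluster 21 of the T cells (40% and 54.8%) were high for both lists. Vascular endothelial cells carried S-phase UMIs in 20.8% (16.4 to 25.7%) of KO and 23.4% (18.9 to 28.4%) of WT cells, close to the 22.5% and 21.7% of cluster 12. Yet they had G2/M UMIs in only 2 of 308 KO and 8 of 329 WT cells. Pericytes or smooth muscle cells had S-phase UMIs in 19.8% (14.5 to 26.1%) of KO and 18% (14.6 to 21.8%) of WT cells. Their G2/M cells were 0 of 197 in KO (3 counts of the total would be 1.52%) and 2 of 472 in WT. Basal cells (11.9% and 10.5%), luminal progenitors (10.9% and 10.4%) and hormone-sensing cells (10.6% and 9.89%) had S-phase shares within each other's intervals, although their G2/M shares differed. The S-phase share thus ranked some of the classes differently from the G2/M share.

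**Figure D2:**
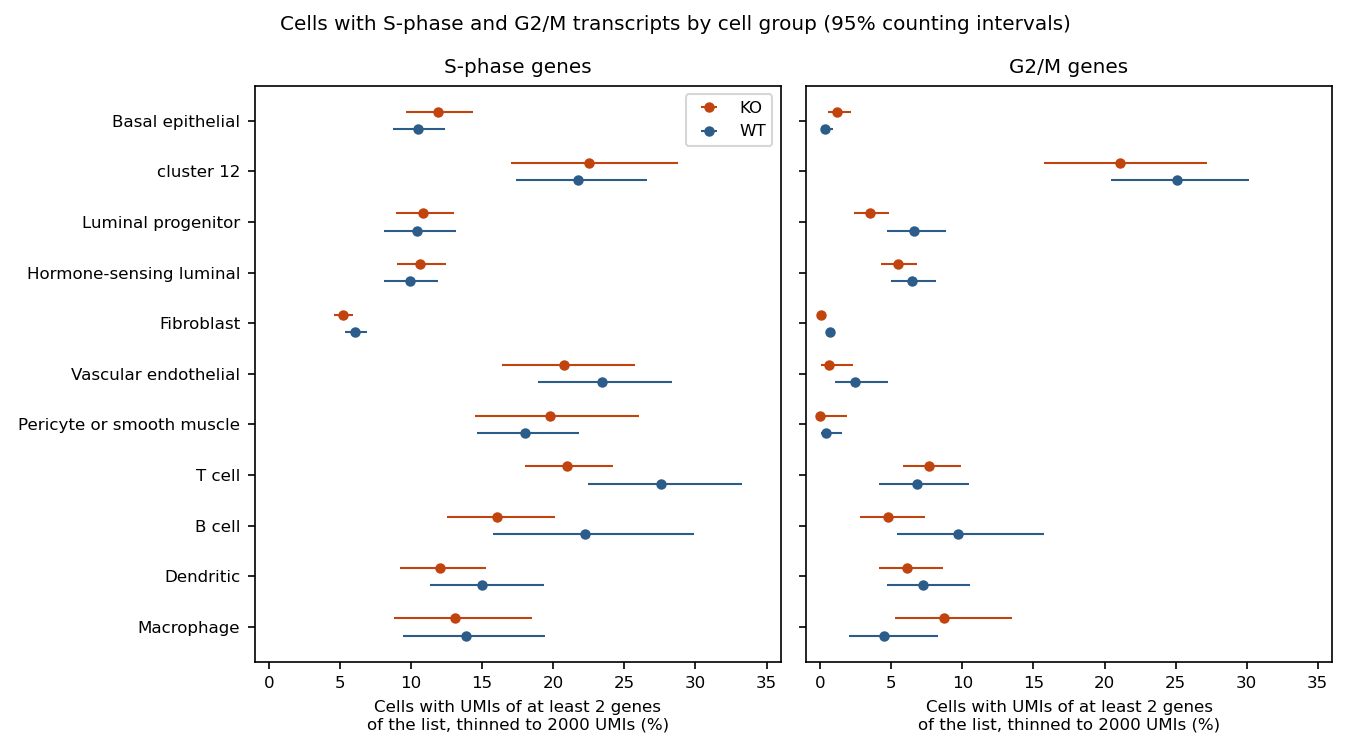
Share of cells with UMIs of at least 2 S-phase genes (left) and at least 2 G2/M genes (right) after thinning to 2000 UMIs, for 11 cell groups on the y axis, with points for the KO (red) and WT (blue) library in 1 draw and bars for exact 95% counting intervals. Cluster 12 is highest for G2/M genes at 21.1% and 25.1%, while vascular cells are high for S-phase genes only.

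The draw of UMIs moved several of these shares, and the draw given above was unlike most of the 100 further draws in some classes. This was found after the shares were computed, and the 100 draws were added then. In luminal progenitors the mean G2/M share over draws was 4.26% in KO and 6.49% in WT cells, with KO below WT in 100 draws. The log2 ratio of these means was -0.61 (-1.31 to 0.046), an interval that includes 0, and the draws ran from -1.06 to -0.25. In fibroblasts the means were 0.0844% and 0.664%, a log2 ratio of -2.98 (-4.87 to -1.34), and the interval lay below 0 in 100 draws. Hormone-sensing cells had means of 5.15% and 6.56%, a log2 ratio of -0.35 (-0.87 to 0.16), and basal cells a log2 ratio of 0.48 (-1.34 to 2.02). Both of these intervals include 0. For S-phase genes the log2 ratios of the means were -0.12 (-0.52 to 0.27) in basal cells, -0.079 (-0.56 to 0.40) in luminal progenitors and -0.048 (-0.45 to 0.34) in hormone-sensing cells, where the draws gave both signs. Fibroblasts stood at -0.29 (-0.57 to -0.011). Over all cells the mean G2/M shares were 3.05% and 3.87%, close to the draw given above.

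How far the lists met in single cells also differed between groups. Of the G2/M cells, 85.2% (72.9 to 93.4%) of 54 KO and 89.5% (66.9 to 98.7%) of 19 WT T cells also carried S-phase UMIs, and 82.6% (61.2 to 95%) of 23 and 85.7% (57.2 to 98.2%) of 14 natural killer cells. In hormone-sensing cells it was 54.3% (41.9 to 66.3%) of 70 KO and 59.4% (46.4 to 71.5%) of 64 WT cells, and in cluster 12 56.8% (41 to 71.7%) of 44 and 50% (38.7 to 61.3%) of 82. Luminal progenitors had 43.8% (26.4 to 62.3%) of 32 and 48.7% (32.4 to 65.2%) of 39. In both libraries the T and natural killer values lay above those of the epithelial groups, as a description without a test. B cells had 77.8% of 18 KO and 78.6% of 14 WT cells. Over the 100 further draws the means were 86.1% and 81.8% in T cells, 86.6% and 94.1% in natural killer cells and 52.5% and 57.9% in hormone-sensing cells. S-phase UMIs were also more common among all natural killer cells (40.9% and 42.3%) and T cells (21% and 27.6%). Among all hormone-sensing cells they were in 10.6% and 9.89%, so the groups start from unlike shares. Over all groups, 60.2% (54.5 to 65.7%) of 309 KO and 51.2% (46 to 56.4%) of 373 WT G2/M cells carried S-phase UMIs, against 9.02% (8.46 to 9.60%) and 9.66% (9.07 to 10.3%) of the other cells. The makeup of the G2/M cells differs between the libraries: 54 of 309 KO and 19 of 373 WT G2/M cells were T cells. The median depth of G2/M cells before thinning was 23995 and 28128 UMIs, against 9617 and 11633.5 in other cells.

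Single S-phase genes separated G2/M cells from other cells to very different degrees. Pcna, the sliding clamp of the replication fork, which also serves DNA repair, had 340.1 (328 to 353) CPM in KO and 260.4 (251 to 270.2) CPM in WT G2/M cells, against 100.4 (98.6 to 102) and 114 (112 to 116) CPM in other cells. Slbp, which binds the stem-loop of histone mRNAs, was 2.36-fold higher in G2/M than in other cells of the KO library and 1.93-fold in the WT library. After thinning, 19.2% of other KO and 21.3% of other WT cells had a Pcna UMI, and 10.5% and 10.7% a Slbp UMI, while for no other S-phase gene was that share above 4.19%, which Rrm1 reached in the WT library. Pcna and Slbp were thus the S-phase genes most often detected outside G2/M cells. Rrm2, the regulated subunit of ribonucleotide reductase, was 30.9-fold and 19.9-fold higher in G2/M cells, and its partner Rrm1 7.42-fold and 6.18-fold. Gmnn, which encodes geminin, the inhibitor of relicensing, stood at 15.4-fold and 18.1-fold, Tyms, the thymidylate synthase gene, at 13.6-fold and 13.4-fold, and Mcm5 at 15.7-fold and 13.4-fold.

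The other helicase and licensing genes lay between: Mcm2 (6.15 and 4.81-fold), Mcm3 (9.59 and 8.78), Mcm4 (3.90 and 2.93), Mcm6 (5.13 and 4.81), Mcm7 (9.34 and 9.87), and the loader gene Cdc6 (7.90 and 7.32). Ung, the uracil-DNA glycosylase of base excision repair, was 4.03 and 3.36-fold higher. The G2/M genes chose these cells, so their own contrast is only a description. It ran in the KO library from 7.74-fold for Aurka, the spindle pole kinase, to 165-fold for Hmmr. In the WT library it ran from 14.8-fold for Aurka to 137-fold for Hmmr. Outside G2/M cells, Aurka stood at 5.58 (5.16 to 6.02) CPM in KO and 3.42 (3.12 to 3.74) CPM in WT cells.

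**Figure D3:**
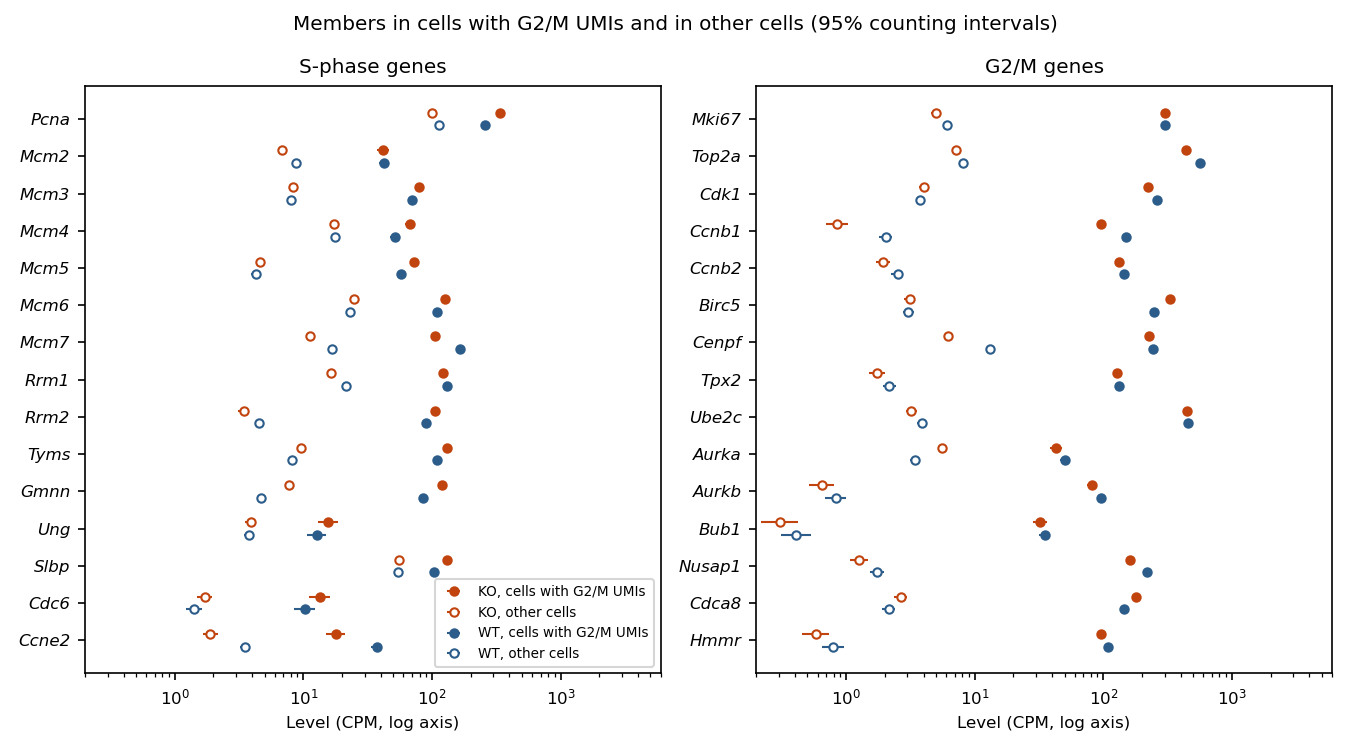
Level of each gene in CPM (log axis) in cells with G2/M UMIs (filled) and in all other cells of at least 2000 UMIs (open), for the KO (red) and WT (blue) library, with exact 95% Poisson intervals. Filled and open points lie close for Pcna and Slbp and far apart for the G2/M genes; Ccne2 and Mcm7 are lower in KO in both kinds of cell.

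Within G2/M cells themselves, several genes differed in level between the libraries. Ccnb1, the cyclin B1 gene, had 95.8 (89.2 to 103) CPM in KO and 149 (142 to 157) CPM in WT G2/M cells. Nusap1, a spindle microtubule protein gene, had 161 (153 to 170.2) and 219 (210.1 to 228) CPM, and Top2a, the topoisomerase that untangles chromosomes, 439 (424 to 453) and 567 (553 to 582). All 3 were lower in KO. Of the chromosomal passenger genes, Birc5 (survivin) was at 329 (317 to 342) and 246 (237 to 255) CPM and Cdca8 (borealin) at 179 (169.5 to 188) and 145 (138 to 153), both higher in KO. The kinase gene Aurkb of the same complex was lower, at 81.3 (75.2 to 87.6) and 95.4 (89.6 to 101). Mki67, the gene of the Ki-67 protein that coats mitotic chromosomes, stood at 301 (289 to 313) and 299 (289 to 310.0) CPM and Ube2c at 450.2 (436 to 465) and 453 (440.1 to 466), each within the other's interval. The members of the list thus did not differ in 1 direction within these cells, whose makeup by cell group differs as given above. These genes also chose the cells, so the values are only a description. How many of all genes differed as much in these cells was not counted.

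The hormone-sensing class, defined by Prlr, Esr1 and other markers, had a lower summed G2/M level in KO, at 379 (371 to 386) CPM against 523 (514 to 532) CPM in WT. The log2 ratio was -0.47 (-0.50 to -0.43). The S-phase level was 329 (322 to 336) CPM in KO and 331 (324 to 338) CPM in WT cells. Of 15 G2/M genes, 14 had a log2 ratio below 0 and 5 were at least 1.5-fold lower in KO (4.30% of all genes with at least 20 UMIs were), with a median of -0.42 against -0.064 over all genes. Single-gene ratios are log2 with 1 CPM added to each library. The 5 were Ccnb1 (10.3 against 20.5 CPM), Nusap1 (18.2 against 33.7), Top2a (50.6 against 81.4), Ccnb2, the cyclin B2 gene (16.3 against 26.8), and Cenpf, a kinetochore protein gene (41.3 against 66). Birc5 (36 against 36.8 CPM) and Tpx2, an activator of Aurka (18.9 against 21.2 CPM), were nearly level, and Aurka was the 1 gene above 0 (19.7 against 18 CPM).

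Among S-phase genes in these cells, Mcm7 was at least 1.5-fold lower in KO, at 19.99 (18.3 to 21.8) CPM against 35.1 (32.8 to 37.5) in WT. Cdc6 was that much higher, at 3.42 (2.75 to 4.20) against 1.79 (1.30 to 2.40) CPM, where 1.36% of all genes were. The list's median was -0.019. The share of G2/M cells had a log2 ratio of -0.25 (-0.76 to 0.26), which includes 0. As counted, 21.8% of KO and 24.7% of WT cells had UMIs of at least 2 G2/M genes, at median depths of 17237 and 20489.5 UMIs. A summed level cannot tell more dividing cells from more transcripts per dividing cell.

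Luminal progenitors, marked by Elf5 and Aldh1a3, also had less G2/M signal in KO, with 188 (183 to 194) CPM in KO and 310.0 (302 to 319) in WT cells. The log2 ratio was -0.72 (-0.78 to -0.66) for the level. For the share of cells it was -0.92 (-1.64 to -0.21) in the draw given above, but -0.61 (-1.31 to 0.046) for the mean of 100 further draws, of which 32 had an interval below 0. All 15 G2/M genes were below 0 (median -0.52, against -0.036 over all genes). Of them, 7 were at least 1.5-fold lower in KO, where 4.69% of all genes were, and 0 of both lists that much higher, where 1.70% were. Cenpf stood at 23.3 (21.4 to 25.4) CPM in KO against 61.6 (57.9 to 65.4) CPM in WT. Nusap1 stood at 8.26 (7.13 to 9.51) against 19.9 (17.8 to 22.1) and Aurkb at 4.00 (3.23 to 4.90) against 8.58 (7.23 to 10.1). Top2a (-0.75), Mki67 (-0.68), Ccnb1 (-0.64) and Tpx2 (-0.60) were the other 4, given as log2 ratios. The S-phase level was 299 (292 to 306) against 324 (316 to 333) CPM, with Mcm7 (15.6 against 29.2) and Ccne2, the cyclin E2 gene (2.75 against 5.34), at least 1.5-fold lower. The class held clusters 6 and 7, and the G2/M share was 1.97% (0.904 to 3.71%) against 6.25% (3.86 to 9.49%) in cluster 6 (means over draws of 2.94% and 5.78%), and 4.96% (3.17 to 7.35%) against 6.93% (4.23 to 10.6%) in cluster 7. Cluster 6 was deep (medians of 31746 and 35296 UMIs) and also carried hormone-sensing markers, such as Prlr at 1295 CPM in KO and 1179 in WT. Without it, an alternative chosen after seeing the data, the level ratio was -0.52. Whether remaining doublets have a part in it was not tested. As counted, the class shares were 20.9% and 23.7%, a log2 ratio of -0.19.

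The basal class went the other way, but on few cells and only with the cells it was given. Its summed G2/M level was 62.6 (58.3 to 67.1) CPM in KO and 42.1 (39 to 45.3) CPM in WT cells, a log2 ratio of 0.57 (0.42 to 0.72). All 14 G2/M genes with enough UMIs were above 0 (median 0.43, against 0.022 over all genes). Birc5 (39 against 22 UMIs), Nusap1 (38 against 27) and Ube2c (141 against 111) were at least 1.5-fold higher in KO in CPM, where 6.23% of all genes were. Of the S-phase genes, Tyms was that much higher (8.09 against 4.93 CPM) and Ccne2 lower (2.38 against 7.15 CPM), where 4.21% of all genes were lower. The sums rest on few cells. The 5 richest cells gave 61.9% of KO and 49.4% of WT G2/M UMIs, and 1 KO cell gave 48.9% of the Ube2c UMIs. With cluster 12 added, an alternative chosen after seeing the data, the ratio turned to -0.53. The level was then 285 CPM in KO against 412 CPM in WT, and the share 5.38% against 5.88%. The sign also turned with doublets kept, with at most 5% mitochondrial UMIs, with cell-cycle genes kept in the clustering and with cells classed one by one. All of these redraw the class, so the direction in basal cells depends on which cells are placed in it.

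Cluster 12 itself had 882 (855 to 909) CPM of G2/M genes in KO and 1132 (1110.0 to 1155) in WT cells, and 635 (613 to 658) against 632 (616 to 649) CPM of S-phase genes. Of its 15 G2/M genes, 12 were below 0 and 4 at least 1.5-fold lower in KO (8.83% of all genes), while 0 were that much higher (2.28%). The 4 were Top2a (114 against 199 CPM), Ccnb1 (40.6 against 72.5), Nusap1 (35.5 against 61) and Aurka (9.98 against 18.7). Birc5 (73.3 against 73.1) and Hmmr (37.2 against 36) were within each other's intervals. Its S-phase genes were mostly level, from Ung at 0.37 to Ccne2 at -0.72 with a median of 0.075, against -0.11 over all genes. Top2a, Ccnb1 and Nusap1 were at least 1.5-fold lower in KO in cluster 12, luminal progenitors and hormone-sensing cells alike. How many of all genes were that low in each of these groups was not counted. The groups come from the same 2 libraries, so they do not repeat each other.

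In fibroblasts, G2/M genes were near the lower end of detection in both libraries, and lower in KO. The level was 15.8 (14.5 to 17.1) against 51.2 (49.1 to 53.4) CPM, a log2 ratio of -1.70 (-1.83 to -1.57). Of 14 measured genes, 12 were at least 1.5-fold lower in KO, where 3.03% of all genes were, and 0 that much higher, where 1.69% were. Top2a had 49 UMIs in KO and 357 in WT fibroblasts, Ccnb1 28 and 185, and Ube2c 64 and 266. The S-phase genes Mcm2 (2.45 against 5.88 CPM), Mcm5 (0.971 against 2.53), Mcm7 (4.63 against 7.96) and Rrm2 (1.97 against 3.51) were at least 1.5-fold lower too, while Slbp (52.6 against 51.2) was level. Of the 24 WT G2/M cells, 11 were in cluster 4, among whose leading genes are Pi16 and Dpp4, 9 in cluster 0 and 4 in cluster 1. Those of cluster 4 had a median of 4032 UMIs, against 12118 in its other WT cells. In cluster 0, 5 WT cells gave 66.8% of the G2/M UMIs. With cell-cycle genes kept in the clustering, the level ratio was -0.55 and the G2/M cells were 0 of 4358 KO and 2 of 3533 WT cells. With 5 CPM added to each library 3 genes passed the fold.

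**Figure D4:**
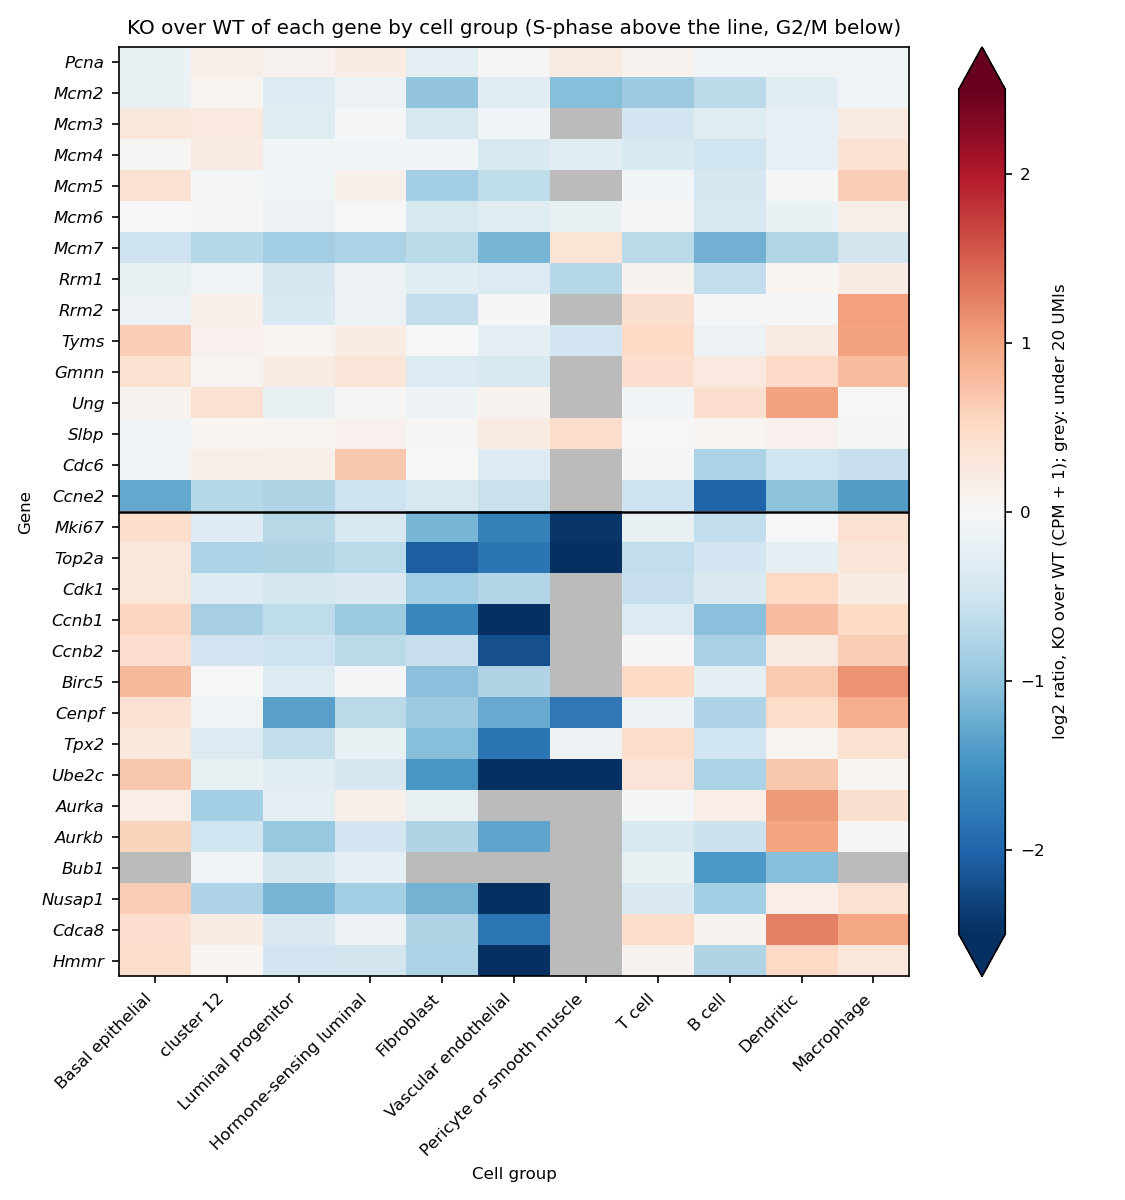
Log2 ratio of KO over WT for each of the 30 genes (rows, S-phase above the line) in 11 cell groups (columns), with 1 CPM added; red is higher in KO, blue lower, and grey marks genes under 20 UMIs. Ccne2 and Mcm7 are blue across nearly all columns, and the G2/M genes are blue in fibroblasts and vascular cells and red in basal cells. The summed G2/M level of basal cells turns with cluster 12 added, and single genes were not recomputed.

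Outside the main classes the groups went both ways. In vascular endothelial cells, all 13 measured G2/M genes were at least 1.5-fold lower in KO, where 13.7% of all genes were, but the 5 richest cells gave 62.1% of KO and 81% of WT G2/M UMIs. None was that much higher, where 4.30% of all genes were. Their G2/M level was 63.1 (54.6 to 72.6) against 242 (227 to 258) CPM, and their S-phase level 571 (544 to 598) against 602 (578 to 627). In B cells the level was 702 (667 to 739) against 1044 (992 to 1097) CPM. There 8 of 15 G2/M genes were at least 1.5-fold lower (17.9% of all genes) and 0 that much higher (8.31%). The 5 richest B cells gave 49.7% of KO and 57.2% of WT G2/M UMIs. Their share of G2/M cells had a log2 ratio of -1.04 (-2.13 to 0.082), an interval that includes 0. T cells had 767 (742 to 793) against 828 (791 to 867), with Top2a the 1 gene that low (17.4% of all genes) and 0 that much higher (4.07%).

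Dendritic cells and macrophages had higher G2/M levels in KO, 287 (273 to 301) against 239 (225 to 254) CPM and 324 (305 to 344) against 236 (222 to 251) CPM. In dendritic cells the share of G2/M cells lay on the other side of 0, with intervals that include 0, at a log2 ratio of -0.24 (-1.07 to 0.61) and of -0.31 (-1.19 to 0.52) for the mean of 100 further draws, 96 of them below 0. As counted, the dendritic shares were 15.3% and 18.6%. In macrophages the mean over draws had a log2 ratio of 0.97 (-0.16 to 2.38). In dendritic cells, 6 of 15 G2/M genes were at least 1.5-fold higher (5.54% of all genes). Among them were Cdca8 (18.2 against 6.96 CPM) and Aurkb (8.30 against 3.70). Bub1, the checkpoint kinase gene, was lower on 9 against 20 UMIs, where 13.3% of all genes were at least 1.5-fold lower. In macrophages, Birc5 (32.1 against 14.1 CPM) was among the 4 of 14 genes that were higher (7.98% of all genes), next to the S-phase genes Rrm2 (33 against 18 UMIs) and Tyms (50 against 29 UMIs). No G2/M gene was that much lower there, where 12.9% of all genes were. The 5 richest macrophages gave 46.6% of KO and 56% of WT G2/M UMIs.

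Of the S-phase genes, Ccne2 kept 1 direction across all 11 cell groups, and Mcm7 and Mcm2 did so in all but 1. Ccne2, which encodes cyclin E2, an activator of Cdk2 at S-phase entry, was below 0 in 11 of 11 groups, 10 of them with at least 20 UMIs. Over all cells it was at 2.90 (2.61 to 3.21) CPM in KO and 6.00 (5.62 to 6.41) CPM in WT. Mcm7 was below 0 in 10 of 11 groups (0.34 in pericytes or smooth muscle) and at 17.4 (16.7 to 18.1) against 27.5 (26.7 to 28.4) CPM over all cells, and Mcm2 in 10 of 11 (0.063 in cluster 12) at 9.06 (8.55 to 9.60) against 11.2 (10.7 to 11.8). Of all genes with at least 20 UMIs in every group, 23.4% were below 0 in at least 10 of 11 groups, so the direction alone is common in these libraries. Over all cells, Ccne2, Mcm7 and Ccnb1 were the 3 of 30 genes at least 1.5-fold lower in KO (4.07% of all genes), and 0 of 30 were that much higher (1.85%).

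The difference in Ccne2 and Mcm7 was not limited to G2/M cells. The other cells include 883 KO and 904 WT cells with S-phase UMIs only. Whether these cells divide was not tested, since Pcna and Slbp UMIs were common outside G2/M cells. In G2/M cells Ccne2 was at 17.8 (15.1 to 21) against 37.4 (33.8 to 41.2) CPM, and in other cells at 1.89 (1.65 to 2.15) against 3.54 (3.23 to 3.86). Mcm7 was at 106 (99 to 113) against 165 (157 to 173) and 11.3 (10.7 to 11.9) against 16.7 (16 to 17.4). Its fellow helicase genes Mcm3, Mcm4, Mcm5 and Mcm6 were higher in KO G2/M cells (log2 ratios of 0.19, 0.39, 0.33 and 0.19). The helicase subunits thus did not shift together in these pooled cells, whose makeup by cell group differs between the libraries. Gmnn was above 0 in 9 of 11 groups (10 with at least 20 UMIs), as was Slbp, where 18.9% of all genes were above 0 in at least 9. Over all cells Gmnn was at 14.9 (14.3 to 15.6) CPM in KO and 10.6 (10.1 to 11.1) CPM in WT. In G2/M cells it was at 119.9 (113 to 128) against 85.4 (79.9 to 91.1) and in others at 7.79 (7.30 to 8.30) against 4.71 (4.35 to 5.08). Fibroblasts (23 against 43 UMIs) and vascular endothelial cells (16 against 27 UMIs) had less of it in KO.

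Wider lists of mitotic and spindle genes lay nearer to the G2/M genes than to the S-phase genes in most of these groups. Of 22 spindle, kinetochore and cytokinesis genes, 21 were below 0 in hormone-sensing cells (median -0.44), 21 in luminal progenitors (-0.54), 21 in cluster 12 (-0.32) and 22 in fibroblasts (-0.70), with 4, 8, 5 and 15 at least 1.5-fold lower in KO, where 4.30%, 4.69%, 8.83% and 3.03% of all genes were. In basal cells, 17 of 22 were above 0 (median 0.21) and 2 at least 1.5-fold higher, near the 6.23% of all genes. Genes of mitotic entry, checkpoint and exit had medians of -0.36, -0.36, -0.51, -0.29 and 0.24 in the same groups, among them Ccna2, the cyclin A2 gene, at 4.52 against 10.6 CPM in luminal progenitors.

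The replication side was flatter, except in fibroblasts. There the replication fork genes (median -0.24) lay near the genes of mitotic entry, checkpoint and exit (-0.29). Origin licensing and firing genes had medians of -0.14 in hormone-sensing cells, -0.0084 in luminal progenitors, 0.0087 in cluster 12, -0.13 in fibroblasts and 0.16 in basal cells, and 2 of 15, both in cluster 12, were at least 1.5-fold lower in any of these groups, near the 8.83% of all genes there. Replication fork and chromatin assembly genes had 0.039, -0.15, -0.0075, -0.24 and -0.060. Within this list, Lig1, which joins Okazaki fragments, was the lowest gene in hormone-sensing cells (23.9 against 34.3 CPM), cluster 12 (30.2 against 57.1) and basal cells (5.07 against 9.79), and Pclaf, the Pcna-associated factor gene, the lowest in fibroblasts (1.12 against 5.60). The nucleotide supply list, which also holds Rrm1, Rrm2 and Tyms, had a median of 0.052 in hormone-sensing cells and -0.13 in fibroblasts.

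Depth bore on both lists and differed between the libraries. In cells of at least 20000 UMIs, G2/M genes stood at 448 (443 to 454) CPM in 1570 KO cells and 513 (508 to 518) CPM in 2088 WT cells. At 10000 to 20000 UMIs they stood at 117 (114 to 119.8) and 70.7 (68.5 to 73). At 2000 to 5000 UMIs they stood at 32.5 (28.2 to 37.3) in 1744 KO cells and 124 (114 to 135) in 1243 WT cells. Below 2000 UMIs they stood at 71.7 (51.2 to 97.6) in 370 and 193 (168 to 220.0) in 788 cells. The order of the libraries thus differed between depths, with KO higher at 10000 to 20000 UMIs and lower at the other depths given. S-phase genes were flatter, from 288 (282 to 295) CPM at 5000 to 10000 UMIs to 433 (427 to 439) at 20000 and over in KO cells. In WT cells they ranged from 293 (289 to 298) at 10000 to 20000 to 429.7 (425 to 435) at 20000 and over.

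The shallow WT cells with G2/M UMIs were mainly those of cluster 15, which stayed unnamed. It held 49 KO cells, with a median of 3797 UMIs, and 429 WT cells, with a median of 1695. It was led by Gm26917, Ube2c, Cdk1 and Lars2, and did not reach the markers required for any type. It held transcripts of more than 1 type together, such as the fibroblast marker Dcn at 4389 and 3894 CPM and the hormone-sensing marker Prlr at 539 and 439 CPM. Below 2000 UMIs it made up 21 of 370 KO and 263 of 788 WT cells and 6 of 40 and 154 of 219 G2/M UMIs, with 188 and 416 CPM. Of its cells of at least 2000 UMIs, 10.7% (2.27 to 28.2%) of 28 KO and 19.3% (13.6 to 26.1%) of 166 WT cells carried G2/M UMIs. What part these cells have in the difference between the libraries in other groups was not tested.

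**Figure D5:**
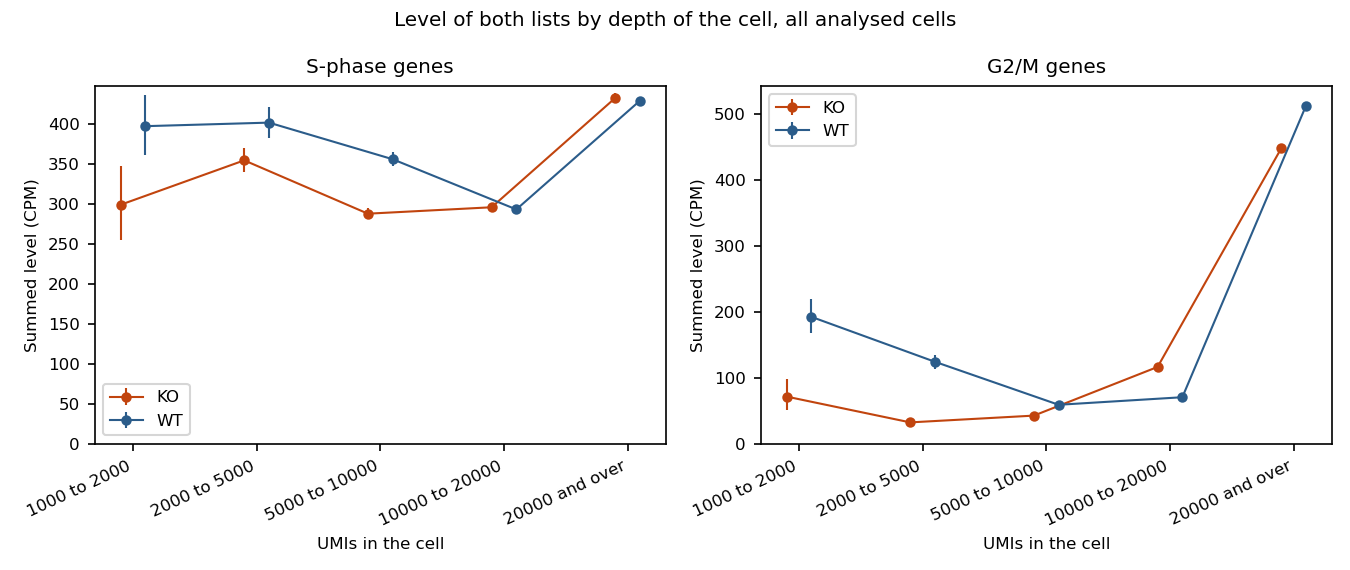
Summed level (CPM) of S-phase genes (left) and G2/M genes (right) in all analysed cells by the number of UMIs in the cell, for the KO (red) and WT (blue) library, with exact 95% Poisson intervals. G2/M genes are highest in the deepest cells of both libraries, and the WT library also has a high level in cells below 5000 UMIs.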

How the data were processed

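UMI counts per gene and cell barcode were deposited by the authors for 2 libraries, 1 KO and 1 WT, unnormalized; per the submitters' processing notes Cell Ranger 5.0.1, Seurat 3.2.0 and the mm10 build were used. Barcodes with at least 500 genes, 1000 UMIs and at most 10% mitochondrial UMIs were kept, and doublets called by Scrublet (scanpy 1.11.5) removed (435 KO, 461 WT). Cells were clustered without cell-cycle genes (2000 variable genes, 30 components, 20 neighbours, Leiden resolution 1) into 29 clusters and named from marker genes. Each cell was thinned to 2000 UMIs without replacement, in 1 draw. After the results were seen, 100 further draws were added, since some shares depended on the draw. Single genes needed 20 UMIs over both libraries, and 1.5-fold (with 1 CPM added) counted as lower or higher. Every member is named, with the extreme genes of the other cell-cycle lists. The members and lists were chosen with earlier results of these data known. With 1 library per genotype there is no test: intervals are 95% and counting error only. edgeR 4.0.16 gave TMM factors as an alternative; simulated counts tested the scripts. Promoter windows came from RefSeq (GRCm38.p6).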

Additional observations from a re-analysis of the deposited data

Results flagged for a closer look

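The summed G2/M level was lower in KO in 8 of the 11 cell groups compared and higher in the other 3, with log2 ratios of KO over WT of 0.57 in basal cells, 0.26 in dendritic cells and 0.46 in macrophages. In dendritic cells this holds for the level alone, since the share of G2/M cells had a log2 ratio of -0.24 (-1.07 to 0.61). The levels of basal cells, dendritic cells and macrophages moved against the rest. The difference between groups was not tested, since each group has 1 library per genotype. The median log2 ratio over all genes was itself below 0 in most groups. T cells count as lower at -0.11, which is above their median of -0.16 over all genes. The basal value turned to -0.53 when cluster 12 was added to the class.

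Cluster 15 was put in no cell class and in no comparison, yet 19.3% of its 166 WT cells of at least 2000 UMIs carried G2/M UMIs, above the 0 of 56 WT muscle cells.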

How the results depend on the processing

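No paired analysis was possible because each genotype has 1 library, and no library could be left out. Over all alternatives, 166 class values stayed within the counting interval of the reported value (counts of genes within 1.5 times), 50 left it and 7 reversed. All values below are log2 KO over WT, and the cause of each shift was not tested except where the class itself was redrawn. For basal G2/M level (0.57) the value was -0.74 with at most 5% mitochondrial UMIs, -0.10 with called doublets kept, -0.46 with cell-cycle genes kept in the clustering, -0.47 with cells classed one by one, -0.53 with cluster 12 added, 0.34 with thinned cells and 0.16 as a mean over cells. The basal G2/M share (1.72) was negative under the first 5 of these, at -0.41, -0.30, -0.18, -0.34 and -0.13, and at -0.53 when 1 gene sufficed. The basal S-phase level (-0.13) was -0.24 at 5% mitochondrial UMIs, -0.029 with cycle genes kept and 0.038 thinned, and the S-phase share (0.18) -0.33 at 1000 UMIs, -0.84 with 3 genes and -0.40 with another draw.

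For luminal progenitors the G2/M level (-0.72) was -0.62 at 5% mitochondrial UMIs, -0.85 with cycle genes kept, -0.98 one by one, -0.52 without cluster 6 and -0.79 as a mean over cells, and the G2/M share -0.19 unthinned. Their S-phase level (-0.12) was 0.029 with cycle genes kept, -0.20 one by one, -0.026 thinned and -0.063 as a mean. For hormone-sensing cells the G2/M level (-0.47) was -0.53 at 5% mitochondrial UMIs, -0.43 with doublets, -0.55 thinned and -0.57 as a mean, the S-phase level -0.055 as a mean, and the S-phase share (0.11) -0.49 at 1000 UMIs and -0.31 with another draw, negative where the reported value is positive. With cycle genes kept in the clustering no cluster was named hormone-sensing, so its 4 results have no value.

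For fibroblasts the G2/M level (-1.70) was -1.13 with doublets, -0.55 with cycle genes kept, -1.52 one by one, -1.29 thinned and -1.36 as a mean, and the share (-3.88) -1.58 unthinned and -0.51 with 1 gene; with cycle genes kept it had no ratio, at 0 of 4358 KO and 2 of 3533 WT cells. Their S-phase share (-0.22) was -0.76 at 1000 UMIs, -0.80 with 3 genes and -0.56 without Pcna and Slbp, and the level (-0.22) -0.16 with cycle genes kept and -0.31 with cluster 10 added. With the mean of 100 thinning draws, the G2/M share ratio was 0.48 in basal cells, -0.61 in luminal progenitors, -0.35 in hormone-sensing cells and -2.98 in fibroblasts, and the S-phase share ratio became negative in basal, luminal progenitor and hormone-sensing cells, all within the counting intervals of the 1 draw. The alternatives with cluster 12, cluster 10, cluster 6, cluster 4, Pcna and Slbp, another draw or 100 further draws were chosen after seeing the data.

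With 5 CPM added in place of 1, the number of genes at least 1.5-fold higher in KO was 0 for both lists in basal cells and 0 for S-phase genes in hormone-sensing cells, and the number lower was 1 for S-phase genes in luminal progenitors, and 0 and 3 for S-phase and G2/M genes in fibroblasts. With 0.1 CPM, 6 basal G2/M genes were higher and 2 hormone-sensing S-phase genes lower, and with at least 100 UMIs 1 basal G2/M gene was higher. Of single genes, 58 values moved with the pseudocount (35 at 5 CPM and 23 at 0.1 CPM) and none reversed under the scaling, filter and pseudocount alternatives. TMM scaling changed none of these counts.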

Other observations

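The regulators that act before S phase did not move as 1 group. Of the CDK inhibitors, which hold cells back from division, Cdkn1c (p57) was the highest against WT in fibroblasts, at 248 CPM in KO and 175 CPM in WT cells, and in luminal progenitors, at 4.52 against 2.04 CPM. The median log2 ratio of the inhibitors was 0.41 in fibroblasts, with 0 of 7 genes at least 1.5-fold higher (1.69% of all genes), and 0.024 in luminal progenitors, with 1 of 7 (1.70% of all genes). In hormone-sensing cells Cdkn2a (p16 and p19) stood at 4.92 against 1.91 CPM. It was the 1 of 7 inhibitors at least 1.5-fold higher there (1.36% of all genes), and 0 were that much lower (4.30%). Cdkn1a (p21), which responds to p53, was lower in KO B cells, at 31.2 against 109 CPM. It was the 1 of 5 inhibitors that low there (17.9% of all genes), and 0 were that much higher (8.31%).

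The D cyclins, which start the passage out of G1, differed by cell group. Ccnd1 had 285 CPM in KO and 159.6 CPM in WT vascular endothelial cells and Ccnd2 131 against 226 CPM in the same cells, whose G2/M genes were all lower in KO. In B cells Ccnd1 stood at 6.53 against 58.5 CPM, and in cluster 12 Ccnd2 at 361 against 517 CPM. These are the extreme genes of the G1 to S regulators in each group, from 2 libraries without a replicate check. At least 1.5-fold lower were 4 of 13 regulators in vascular cells (13.7% of all genes), 3 of 14 in B cells (17.9%) and 0 of 14 in cluster 12 (8.83%). That much higher were 1 of 13 (4.30%), 1 of 14 (8.31%) and 0 of 14 (2.28%). The B cell values come from 405 KO and 151 WT cells. In cluster 21 of the T cells, markers of other cell types stood higher in WT. Examples are Acta2 at 16.9 CPM in KO against 471 CPM in WT and Col1a1 at 21.1 against 208 CPM. Such markers were not examined in B cells, and their bearing on Ccnd1 and Cdkn1a there was not tested. Of the barcodes called doublets and left out, 18 of 428 KO and 5 of 387 WT barcodes of at least 2000 UMIs carried G2/M UMIs.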
